A study of Homo sapiens with 9 samples.

Results

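Raji cells given thymidine and nocodazole (Thy-Noc) were compared with Raji cells given only the solvent DMSO, across every gene abundant enough to test. Raji is a long-established line of human lymphoma B cells, from a patient with Burkitt lymphoma. The comparison rests on 6 of the 9 RNA libraries of the series, 3 from Thy-Noc and 3 from DMSO, and the other 3 come from cells given hydroxyurea (HU), an inhibitor of ribonucleotide reductase. The labels name no allele, transgene or further agent in any group, and the sources used here do not give doses, times or the order of the agents. A gene was tested where 3 or more of the 9 libraries reached a CPM of 1 (CPM is a count scaled to library size), which kept 11346 of the 15436 genes listed. Since nothing in the labels ties the replicates to separate cultures, p-values here reflect the spread among these libraries alone, and it may be technical. Adjusted p-values are Benjamini-Hochberg values from edgeR's quasi-likelihood test unless DESeq2 or limma is named.

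Excess thymidine blocks DNA synthesis by upsetting the deoxynucleotide pools, and a thymidine block gathers cells at the start of S phase. Nocodazole binds tubulin and takes microtubules apart, which leaves kinetochores unattached and holds cells in mitosis through the spindle assembly checkpoint. Genes of mitosis are normally transcribed late in the cycle, many of them through a promoter element called the cell cycle homology region (CHR), while genes of S-phase entry are driven earlier by E2F factors. In RNA from a whole culture, fewer cells of one cycle stage and less RNA per cell cannot be told apart.

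Between Thy-Noc and DMSO, 4 genes differed beyond the spread between libraries. SLBP, CRIP3 and SETD2 rose and FCRL3 fell past the threshold of an edgeR adjusted p under 0.05. That is 0.0353% of the 11346 genes tested, 3 higher (0.0264%) and 1 lower (0.00881%) in Thy-Noc, and the next lowest edgeR adjusted p was 0.119. At an unadjusted p under 0.05, edgeR gave 510 genes (4.49%), 278 of them higher (2.45%) and 232 lower (2.04%). For 1131 genes (9.97%) the 3 Thy-Noc values and the 3 DMSO values did not overlap, 588 higher (5.18%) and 543 lower (4.79%) in Thy-Noc. DESeq2 called 179 genes (1.58%), 102 higher (0.899%) and 77 lower (0.679%). DESeq2 gave no adjusted p for 414 genes, among them TUBB, RRM1 and ETAA1, and these count as not called. Limma called 12 (0.106%), 7 higher (0.0617%) and 5 lower (0.0441%). All 4 genes called by edgeR were also called by both of these tools. Of the 179 genes called by DESeq2, 60 (33.5%) differed at least 10-fold between replicates of the same group. The median log2 fold change over all tested genes was 0.01, with the middle 50% of genes between −0.19 and 0.22.

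**Figure D1:**
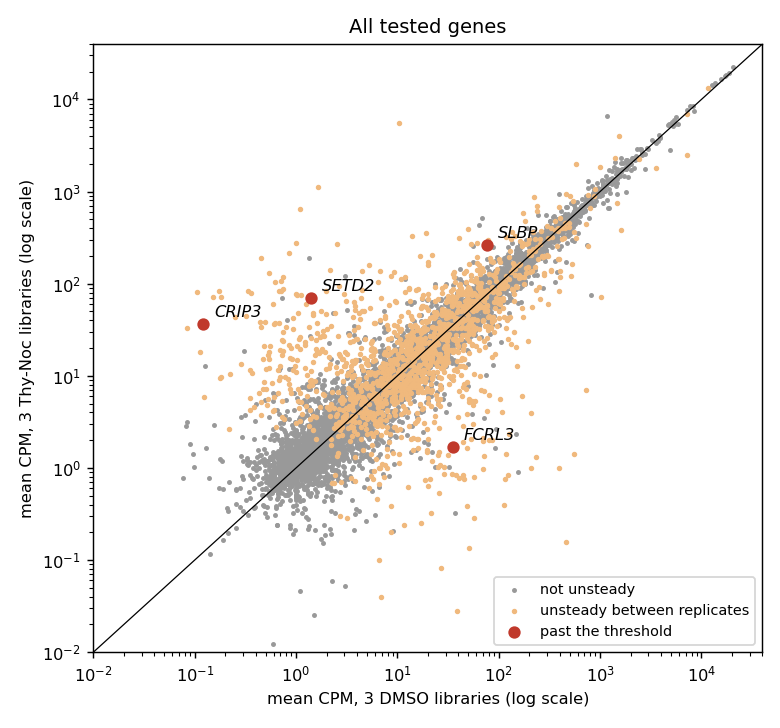
Mean CPM in the 3 Thy-Noc libraries against mean CPM in the 3 DMSO libraries for the 11346 tested genes, both axes on a log scale, with the line of equal values. Red points are the 4 genes past the threshold (SLBP, CRIP3, SETD2 and FCRL3), orange points the 1487 genes that differed at least 10-fold between replicates, and most grey points lie along the line.

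The number of calls moved with the libraries included. It was 9, 10 and 13 without DMSO replicate 1, 2 and 3, 6 without any 1 of the 3 HU libraries, and 11, 6 and 5 without Thy-Noc replicate 1, 2 and 3. SLBP, CRIP3 and FCRL3 were called in all 9 of these fits, and SETD2 in 8. SETD2 missed the threshold without DMSO replicate 2 (edgeR adjusted p 0.0552). Among members of the gene lists described here, edgeR also called HLA-F without DMSO replicate 1, RRM1 without DMSO replicate 2, and MXD3, UHRF2 and VEGFA without Thy-Noc replicate 1.

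The deposited values set a limit on what could be seen. For 1487 of the 11346 tested genes (13.1%), the highest library of the DMSO or the Thy-Noc group exceeded the lowest at least 10-fold after 0.5 CPM was added to each, and such genes are called unsteady here. With 1 annotated transcript, 1.19% of 1009 genes were unsteady. With 2 to 3 it was 4.57% of 1445 genes, with 4 to 10 it was 11.6% of 5115, and with more it was 21.8% of 3736. The summed counts of the 6 libraries ran from 76668973 to 110485145, so depth was high, and the median standard error of a log2 fold change was 0.35 over all genes and 0.29 over the 9859 genes that were not unsteady. Over 9511 genes steady in all 3 groups, log2(CPM + 0.5) values of 2 libraries had a Pearson r of 0.961 to 0.962 within DMSO, 0.953 to 0.958 within Thy-Noc and 0.950 to 0.958 between them. Between DMSO and HU libraries r ran from 0.931 to 0.940. These r values are across genes, which share their library and are not replicates. Of the tested genes, 6 passed the abundance filter only through the Thy-Noc libraries and 13 only through the DMSO libraries.

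The 4 genes past the threshold have different known roles. SLBP, which binds the stem-loop at the end of histone mRNAs and is needed to process and translate them, lies on the minus strand at chr4:1692800-1712555 (GRCh38, as are all gene positions here) and has 6 annotated transcripts. DMSO libraries held 77.4, 73.8 and 79.1 CPM and Thy-Noc libraries 232, 286 and 263 CPM. The groups were far apart and each was tight. SLBP rose 3.40-fold (log2 fold change 1.76 ± 0.12 SE, 95% interval 1.49 to 2.04), with an edgeR adjusted p of 0.00518. In HU it stood at 254, 230 and 288 CPM, a range that the Thy-Noc values overlap (log2 difference of Thy-Noc from HU 0.02 ± 0.11, edgeR adjusted p 0.970).

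CRIP3, a LIM-domain protein, lies on the minus strand at chr6:43299710-43308797 and has 7 annotated transcripts. Its DMSO level was 0.0634, 0.0840 and 0.216 CPM, from 5, 9 and 17 counts, and its Thy-Noc level was 33.6, 33.3 and 42.4 CPM, from 2462, 2565 and 4096 counts. Its deposited value was near 0 in every DMSO library and clearly above 0 in every Thy-Noc library. A value may hold only part of a gene's reads, for CRIP3 as for other genes named in the text. CRIP3 rose 298-fold (log2 fold change 8.22 ± 0.55 SE, 95% interval 6.92 to 9.52), with an edgeR adjusted p of 0.00518. HU values were 23.7, 24.4 and 25.1 CPM (log2 difference of Thy-Noc from HU 0.58 ± 0.40, edgeR adjusted p 0.512, DESeq2 adjusted p 0.00738). The size of the fold rests on the few DMSO counts: the log2 fold change was 8.92 without DMSO replicate 3 and 5.89 in limma with 0.5 CPM added. The call ended with only the 6 libraries compared (edgeR adjusted p 0.0674).

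SETD2, the methyltransferase that marks histone H3 along transcribed genes, lies on the minus strand at chr3:47016429-47163967 with 9 annotated transcripts. Levels were 1.76, 1.36 and 1.12 CPM in DMSO, 51.0, 111 and 47.9 CPM in Thy-Noc and 174, 111 and 135 CPM in HU. SETD2 rose 49.4-fold from DMSO to Thy-Noc (log2 fold change 5.63 ± 0.45 SE, 95% interval 4.58 to 6.68), with an edgeR adjusted p of 0.00995. The call ended with only the 6 libraries compared (edgeR adjusted p 0.0882) and without DMSO replicate 2 (0.0552). The gene is long and was near 1 CPM in every DMSO library, and values in this table may count only part of a gene's reads.

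FCRL3, an Fc receptor-like surface protein of B cells, was the gene that fell. It lies on the minus strand at chr1:157674321-157700857 with 12 annotated transcripts. DMSO libraries held 37.4, 26.4 and 41.2 CPM, against 1.46, 1.41 and 2.13 CPM in Thy-Noc, with 6.86, 10.4 and 8.93 CPM in HU. Thy-Noc was the lowest of the 3 groups and overlapped neither of the others. FCRL3 fell 20.9-fold (log2 fold change −4.39 ± 0.31 SE, 95% interval −5.10 to −3.67), with an edgeR adjusted p of 0.00518. It was also lower in Thy-Noc than in HU (log2 difference −2.39 ± 0.28, edgeR adjusted p 0.0186). That second call held in 3 of the 9 fits that each left out 1 library and ended without DMSO replicate 1, HU replicate 1 or 3 or any of the Thy-Noc replicates, with adjusted p up to 0.0693.

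**Figure D2:**
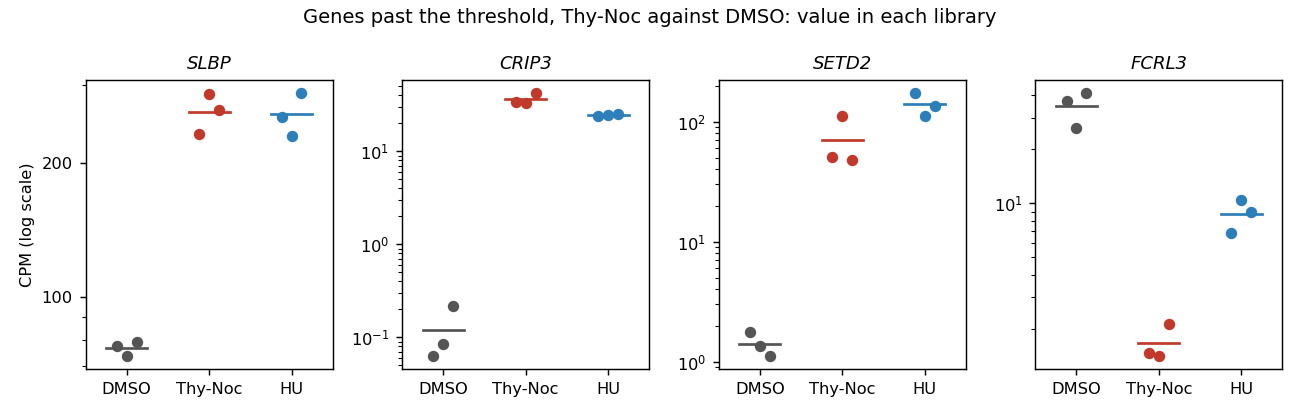
CPM on a log scale in each of the 9 libraries for the 4 genes past the threshold, with a point for each library and a line at the group mean. SLBP, CRIP3 and SETD2 are higher in every Thy-Noc library than in any DMSO library, and FCRL3 is lower in every Thy-Noc library.

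Thymidine and nocodazole are used to hold cells at a stage of the cycle, and many cell cycle genes share known promoter letters. The promoters of the 4 genes are therefore shown. Whether these cultures were held at a stage was not tested. Each is RefSeq sequence of GRCh38.p14 on the gene's own strand, from 250 bases before the annotated start to 50 after it. Capitals mark matches on either strand to TTTGAA, the core of the CHR, to CCAAT, the CCAAT box, or to GGCGGGA, 1 form of an E2F site. The windows lie at chr4:1712270-1712569 (SLBP), chr6:43308777-43309076 (CRIP3), chr3:47164064-47164363 (SETD2) and chr1:157700720-157701019 (FCRL3), all on the minus strand.
SLBP: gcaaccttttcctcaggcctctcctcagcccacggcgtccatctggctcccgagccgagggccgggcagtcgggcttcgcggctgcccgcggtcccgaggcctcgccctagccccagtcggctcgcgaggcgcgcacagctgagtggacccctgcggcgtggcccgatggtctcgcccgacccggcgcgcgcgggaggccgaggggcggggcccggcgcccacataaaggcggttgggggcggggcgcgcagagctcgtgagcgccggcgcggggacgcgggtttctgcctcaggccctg
CRIP3: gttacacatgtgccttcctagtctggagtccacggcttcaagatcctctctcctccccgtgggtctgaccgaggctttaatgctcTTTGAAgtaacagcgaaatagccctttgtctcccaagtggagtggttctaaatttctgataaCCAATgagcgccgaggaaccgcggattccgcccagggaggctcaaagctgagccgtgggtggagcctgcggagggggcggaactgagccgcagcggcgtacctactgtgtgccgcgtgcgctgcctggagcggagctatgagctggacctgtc
SETD2: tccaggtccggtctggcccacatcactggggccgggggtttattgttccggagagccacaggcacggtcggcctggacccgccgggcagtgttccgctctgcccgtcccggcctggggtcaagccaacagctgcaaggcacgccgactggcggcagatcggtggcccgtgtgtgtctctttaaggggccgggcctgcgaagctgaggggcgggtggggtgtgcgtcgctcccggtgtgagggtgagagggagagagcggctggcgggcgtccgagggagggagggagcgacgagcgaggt
FCRL3: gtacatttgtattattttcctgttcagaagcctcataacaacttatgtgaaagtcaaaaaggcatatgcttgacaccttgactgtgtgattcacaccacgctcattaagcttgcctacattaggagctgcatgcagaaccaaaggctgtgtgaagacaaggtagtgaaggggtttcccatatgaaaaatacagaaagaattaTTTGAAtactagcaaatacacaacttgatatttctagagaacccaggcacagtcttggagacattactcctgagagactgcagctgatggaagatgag
CRIP3 holds a TTTGAA whose first base lies 165 bases before the start and a CCAAT 103 bases before it. FCRL3 holds a TTTGAA 48 bases before its start. The windows of SLBP and SETD2 hold none of the 3 motifs. TTTGAA occurs on either strand in 9.89% of 8587 promoters of tested genes and in 15.2% of all 34943 promoters of the table, CCAAT in 38.4% and 34.6%, and GGCGGGA in 25.7% and 15.3%. No matches overlap in these windows. A match is a description of the letters only.

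Other genes missed the edgeR threshold with all 9 libraries and all tested genes but passed in limma, and most of them were chosen after their values were seen. VEGFA, the vascular growth factor, stood at 69.8, 48.2 and 43.5 CPM in DMSO, 6.67, 2.76 and 2.19 CPM in Thy-Noc and 85.8, 79.1 and 64.2 CPM in HU. Thy-Noc was low against both other groups, which overlap. The difference from DMSO was −3.80 ± 0.47 on the log2 scale, with an edgeR adjusted p of 0.121 and a limma adjusted p of 0.0216, and it passed in edgeR without Thy-Noc replicate 1 (adjusted p 0.0118). Against HU, VEGFA was lower in Thy-Noc by edgeR (−4.30 ± 0.49, adjusted p 0.0173), a call that ended without HU replicate 1 or Thy-Noc replicate 2 or 3, with adjusted p up to 0.0668.

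BET1, a SNARE protein of transport between endoplasmic reticulum and Golgi, stood at 0.190, 0.933 and 1.34 CPM in DMSO, 42.9, 39.3 and 39.4 CPM in Thy-Noc and 0.291, 0.622 and 0.257 CPM in HU. It was under 2 CPM in every library outside Thy-Noc. The difference from DMSO was 5.63 ± 0.78 (edgeR adjusted p 0.173, limma 0.00423). Against HU it was 6.70 ± 0.83 (edgeR adjusted p 0.0230), a call that ended without HU replicate 1 or 3 or any of the Thy-Noc replicates, with adjusted p up to 0.0902. WDR41, a WD-repeat protein of an autophagy complex, stood at 89.6, 105 and 88.3 CPM in DMSO, 2.98, 0.662 and 4.34 CPM in Thy-Noc and 3.09, 3.49 and 1.72 CPM in HU. It was low under both agents, with a Thy-Noc difference of −5.15 ± 0.72 (edgeR adjusted p 0.173, limma 0.0216), and passed in edgeR without Thy-Noc replicate 2 (0.0394).

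ZNF274, a zinc-finger repressor, stood at 3.61, 6.38 and 4.45 CPM in DMSO and 34.9, 21.1 and 22.5 CPM in Thy-Noc. Its difference from DMSO was 2.44 ± 0.30 (edgeR adjusted p 0.121, limma 0.0469), and ZNF274 passed in edgeR without unsteady genes (0.04998). HU libraries held 25.95, 30.22 and 33.98 CPM, a range that the Thy-Noc values overlap. HU minus DMSO was 2.64 and passed in edgeR (adjusted p 0.01545). The log2 difference of Thy-Noc from HU was −0.198 ± 0.283 (edgeR adjusted p 0.7965). ETAA1, an activator of the ATR checkpoint kinase, stood at 0.0380, 0.849 and 0.0382 CPM in DMSO, 17, 22.4 and 16.5 CPM in Thy-Noc and under 0.5 CPM in every HU library. Its difference from DMSO was 5.89 ± 1.61 (edgeR adjusted p 0.9998, limma 0.0107). EVC2, a ciliary protein, differed by 5.11 ± 0.75 on the log2 scale (edgeR adjusted p 0.207, limma 0.00793). ZNF737, a zinc-finger protein, differed by −3.45 ± 0.54 (edgeR 0.275, limma 0.0495). BTD, which recycles biotin, differed by −5.46 ± 1.65 (edgeR 0.9998, limma 0.0495). EVC2 had only 1, 7 and 13 counts in DMSO, and its difference was 2.52 in limma with 0.5 CPM added. In Thy-Noc, ZNF737 had 25, 44 and 16 counts and BTD 10, 36 and 1. HU minus DMSO was 5.88 for EVC2, −1.83 for ZNF737 and −4.04 for BTD. In all 8 of the genes that limma called and edgeR did not, DMSO and Thy-Noc did not overlap, beside 9.97% of all genes. A low limma p on the same values favours such a gap, so the gap adds no support.

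No gene of mitosis passed against DMSO. The members were 129 tested genes of 4 lists that share no tested gene, which hold mitotic kinases, cyclins and kinesins, the spindle checkpoint and anaphase-promoting complex, the kinetochore and centromere, and cohesin and condensin. Their median log2 fold change was 0.03, beside 0.01 over all genes. By edgeR 0 of the 129 passed against DMSO in either direction, 4 had an unadjusted p under 0.05 (3 higher and 1 lower), DESeq2 called 1 (lower) and limma 0. In 8 genes Thy-Noc lay wholly above DMSO and in 2 wholly below, against 5.18% and 4.79% of all genes.

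CDC20, the activator of the anaphase-promoting complex and the target of the spindle checkpoint, stood at 211, 211 and 190 CPM in DMSO, 339, 215 and 261 CPM in Thy-Noc and 64.7, 41.3 and 70.3 CPM in HU. Thy-Noc replicate 2 lay just above the DMSO libraries and the other two clearly above. The difference from DMSO was 0.41 ± 0.23 on the log2 scale (95% interval −0.14 to 0.96) and missed the threshold, with an edgeR adjusted p of 0.9998. BUB1, a checkpoint kinase of the kinetochore, stood at 296, 302 and 322 CPM in DMSO and 394, 340 and 353 CPM in Thy-Noc (0.24 ± 0.14, 95% interval −0.09 to 0.57). CKS2, which binds cyclin-dependent kinases and has a single annotated transcript, stood at 123, 104 and 125 CPM in DMSO and 157, 127 and 132 CPM in Thy-Noc (0.24 ± 0.13, 95% interval −0.06 to 0.54). In all 3 of these genes the Thy-Noc libraries lay above the DMSO libraries, by less than the test could separate from the spread. Only 8 of the 129 mitosis genes lay wholly above, beside 5.18% of all genes. BUB1 and CKS2 were chosen after their values were seen. MAD2L2, a relative of the checkpoint protein MAD2, differed by 0.22 ± 0.12 (95% interval −0.06 to 0.50).

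TOP2A, the topoisomerase that untangles sister chromatids, stood at 306, 276 and 301 CPM in DMSO and 251, 316 and 281 CPM in Thy-Noc (−0.06 ± 0.15, 95% interval −0.41 to 0.29). CENPF, a kinetochore protein, stood at 144, 158 and 143 CPM in DMSO and 180, 137 and 128 CPM in Thy-Noc. CCNA2, cyclin A2, stood at 77.7, 85.1 and 88.0 CPM in DMSO and 90.0, 80.4 and 92.7 CPM in Thy-Noc. The 2 groups overlapped in these 3 genes.

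The lowest p in the mitotic list belonged to KIF23, the kinesin of the central spindle, at 77.4, 67.8 and 68.5 CPM in DMSO, 7.98, 1.16 and 1.29 CPM in Thy-Noc and 1.10, 8.0 and 6.88 CPM in HU. Both treated groups lay far below DMSO. EdgeR did not call it (−4.36 ± 1.05, edgeR adjusted p 0.9998) and DESeq2 did (DESeq2 adjusted p 0.000595). CDC25B, a phosphatase that starts mitosis, stood at 53.5, 142 and 116 CPM in DMSO and 51.0, 5.63 and 12.4 CPM in Thy-Noc (−2.18 ± 0.96). PLK1, a kinase needed throughout mitosis, stood at 53.7, 149 and 157 CPM in DMSO and 67.6, 20.5 and 36.2 CPM in Thy-Noc, and the groups overlapped. CCNB1, cyclin B1, stood at 2.94, 3.38 and 7.45 CPM in DMSO and 9.08, 1.73 and 10.5 CPM in Thy-Noc. AURKA, Aurora kinase A, was unsteady, at 87.4, 6.24 and 23.8 CPM in DMSO and 26.4, 20.6 and 20 CPM in Thy-Noc. In CDC25B, PLK1, CCNB1 and AURKA at least 1 library lay far from its replicates.

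Among kinetochore genes the lowest p belonged to HJURP, which loads the centromeric histone, at 2.02 ± 0.83, and to CENPI, at −1.81 ± 0.84 on the log2 scale, and neither passed. HJURP stood at 1.86, 1.49 and 0.661 CPM in DMSO and 2.58, 12 and 1.71 CPM in Thy-Noc, and its log2 difference was 0.68 without Thy-Noc replicate 2. CENPI stood at 8.32, 1.22 and 3.04 CPM in DMSO and 1.33, 0.857 and 1.41 CPM in Thy-Noc, and its log2 difference was −0.83 without DMSO replicate 1. In each gene 1 library stood well above its replicates. The cohesin subunit STAG2 stood at 143, 127 and 175 CPM in DMSO and 180, 204 and 194 CPM in Thy-Noc (0.38 ± 0.27), and the cohesin regulator PDS5A differed by −0.11 ± 0.09 (95% interval −0.31 to 0.09).

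Set directly against HU, 11 mitosis genes were higher in Thy-Noc. That is 11 of 129 by edgeR, with 0 lower, against 1.06% and 0.696% of all genes (199 genes called, 1.75%, 120 higher and 79 lower in Thy-Noc). The median log2 difference of the 129 from HU was 0.42, beside −0.01 over all genes. Their median of HU minus DMSO was −0.44, beside 0.02 over all genes, while Thy-Noc minus DMSO was 0.03. These differences share libraries. CDC20 was higher by 2.21 ± 0.24 (0.0169), CKS2 by 1.30 ± 0.13 (0.0131), CENPF by 1.17 ± 0.15 (0.0234) and TOP2A by 0.97 ± 0.15 (0.0368), all with edgeR adjusted p in parentheses. CKS2, CENPF and TOP2A were chosen after their values were seen. The HU libraries stood at 54.6, 52.5 and 61.7 CPM for CKS2, 66.6, 59.7 and 71.3 CPM for CENPF and 155, 116 and 162 CPM for TOP2A, all under every Thy-Noc library. HU was also lower than DMSO in the 4 genes by edgeR. That log2 difference was −1.79 for CDC20 (adjusted p 0.022), −1.06 for CKS2 (0.0165), −1.17 for CENPF (0.018) and −1.03 for TOP2A (0.022).

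These direct calls depended on the libraries and the tool. With only the 6 libraries compared 1 mitosis gene passed as higher and 0 as lower, beside 12 and 6 of all 11346 genes. DESeq2 called 35 mitosis genes higher and 4 lower, beside 926 and 900 of all 11346 genes. The 11 became 2, 2 and 3 without DMSO replicate 1, 2 and 3, 0, 7 and 2 without HU replicate 1, 2 and 3, and 3, 2 and 0 without Thy-Noc replicate 1, 2 and 3. In these 9 fits 0 passed as lower, except 1 without Thy-Noc replicate 1. CDC20 and CKS2 each lost their call without HU replicate 1 and without Thy-Noc replicate 3, with adjusted p up to 0.0701 and 0.0668. CENPF kept its call only without HU replicate 2 or Thy-Noc replicate 1, and TOP2A only without HU replicate 2, with adjusted p up to 0.0849 and 0.120. Over these 9 fits the log2 difference from HU ran from 2.01 to 2.36 in CDC20, 1.19 to 1.38 in CKS2, 0.9998 to 1.26 in CENPF and 0.84 to 1.06 in TOP2A. Scaling by total counts moved the median of all genes against HU to −0.16 and the split to 46 higher and 111 lower, and 3 mitosis genes then passed as higher. Over all genes the count of direct calls was 38, 51 and 40 without DMSO replicate 1, 2 and 3, 12, 110 and 31 without HU replicate 1, 2 and 3, and 48, 26 and 1 without Thy-Noc replicate 1, 2 and 3.

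**Figure D3:**
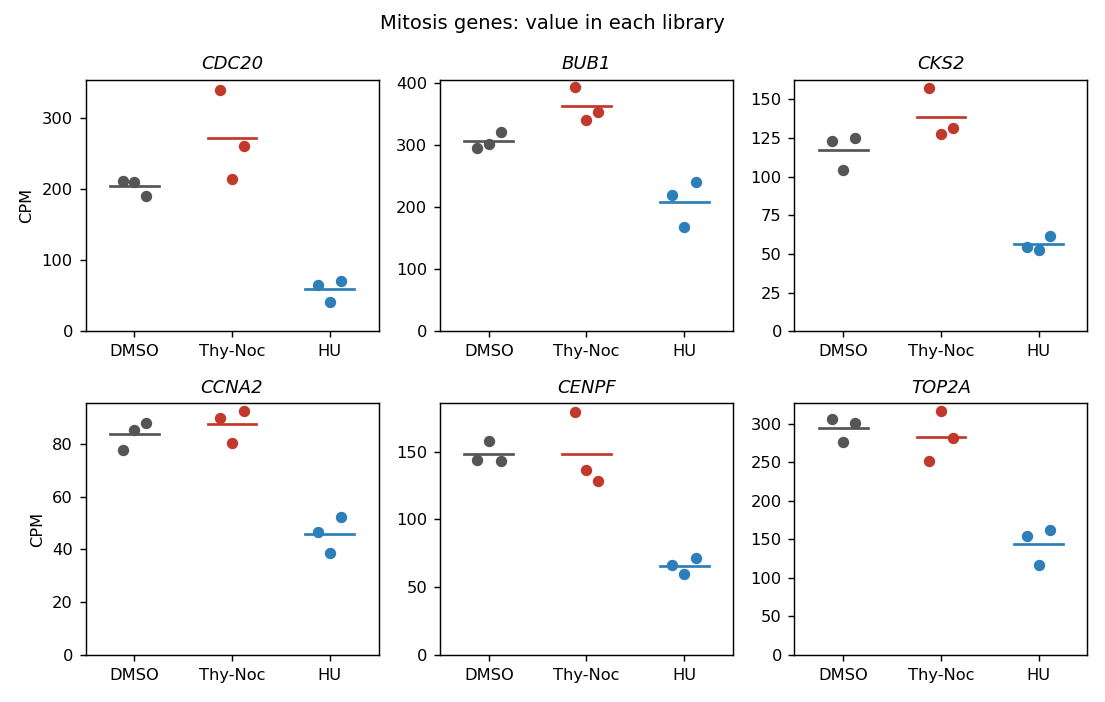
CPM from 0 in each of the 9 libraries for 6 mitosis genes, with a point for each library and a line at the group mean. Thy-Noc values overlap the DMSO values or lie above them, as for CDC20 at 339, 215 and 261 against 211, 211 and 190 CPM, and above all HU values.

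The CDC20 promoter is shown because CDC20 had the largest direct difference of the 4 mitosis genes set against HU above. It lies on the plus strand at chr1:43358731-43359030 (RefSeq, GRCh38.p14), with the same motifs in capitals.
CDC20: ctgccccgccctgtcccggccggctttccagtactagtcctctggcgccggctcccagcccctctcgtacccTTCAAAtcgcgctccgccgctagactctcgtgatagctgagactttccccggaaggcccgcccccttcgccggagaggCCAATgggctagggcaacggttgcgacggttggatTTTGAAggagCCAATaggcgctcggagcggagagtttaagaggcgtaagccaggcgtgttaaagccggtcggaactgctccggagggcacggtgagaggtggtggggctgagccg
It holds TTTGAA 65 bases before the start and, read on the other strand, 178 bases before it, and CCAAT 100 and 55 bases before it. Of 108 mitosis-list genes with a promoter in the table, 53 (49.1%) hold TTTGAA, 66 (61.1%) hold CCAAT and 31 (28.7%) hold GGCGGGA, beside 9.89%, 38.4% and 25.7% of promoters of tested genes. The lists were made of known mitosis genes, for which these elements are described.

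Tubulin genes are of interest because nocodazole frees tubulin from microtubules, and free tubulin is known to trigger decay of tubulin mRNAs while they are translated. The trigger is read from the first residues of the new chain, so the coding starts of 4 tubulin genes are shown, from GENCODE 29 transcripts on GRCh38. Capitals mark the first 12 coding bases, the 4 codons at the start.
TUBA1B: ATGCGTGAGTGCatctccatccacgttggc
TUBB4B: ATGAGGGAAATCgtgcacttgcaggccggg
TUBB2A: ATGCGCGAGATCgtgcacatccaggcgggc
TUBB: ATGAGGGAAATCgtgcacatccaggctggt
The first coding base lies at position 49131300 of chromosome 12 (minus strand) for TUBA1B, 137241361 of chromosome 9 (plus) for TUBB4B, 3157463 of chromosome 6 (minus) for TUBB2A and 30720507 of chromosome 6 (plus) for TUBB. TUBB and TUBB4B have the same 12 bases.

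No tubulin gene passed. Of 14 tested, edgeR called 0 against DMSO, 0 had an unadjusted p under 0.05, and DESeq2 and limma called 0. The median log2 fold change was −0.17, with 4 positive and 10 negative, beside 0.01 over all genes, and it was −0.08 over the 11 that were not unsteady. TUBA1B, an alpha-tubulin of most cells, stood at 7971, 8595 and 8746 CPM in DMSO and 6480, 7818 and 8407 CPM in Thy-Noc. The difference was −0.16 ± 0.11 (95% interval −0.42 to 0.11), and the 2 groups overlapped. TUBA4A, another alpha-tubulin, stood at 451, 510 and 491 CPM in DMSO and 410, 455 and 506 CPM in Thy-Noc (−0.08 ± 0.10, 95% interval −0.32 to 0.15). TUBB4B, a beta-tubulin, stood at 444, 506 and 468 CPM in DMSO and 345, 396 and 506 CPM in Thy-Noc (−0.18 ± 0.25, 95% interval −0.77 to 0.40). In all 3, Thy-Noc replicate 1 was the lowest of the 6 libraries and Thy-Noc replicate 3 lay within the DMSO range.

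TUBB2A was the only tubulin without overlap between the 2 groups, at 10.2, 11.5 and 10.2 CPM in DMSO and 10.2, 5.59 and 6.16 CPM in Thy-Noc (−0.54 ± 0.29, 95% interval −1.21 to 0.13). The highest Thy-Noc library lay just under the lowest DMSO library. TUBB, TUBB3 and TUBG1 were unsteady and gave no readable difference. TUBB, a beta-tubulin of most cells, stood at 25.1, 10.4 and 10564 CPM in DMSO and 5466, 1.39 and 1.74 CPM in Thy-Noc. TUBB3 stood at 239.6, 237 and 0.0509 CPM in DMSO and 137, 0.0519 and 239 CPM in Thy-Noc. The remaining members, TUBA1A, TUBA1C, TUBB2B, TUBB6, TUBG2, TUBD1 and TUBE1, stood between 0.507 and 33.9 CPM in the 6 libraries. Tubulins are a family of close copies, so reads may be split between them.

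**Figure D4:**
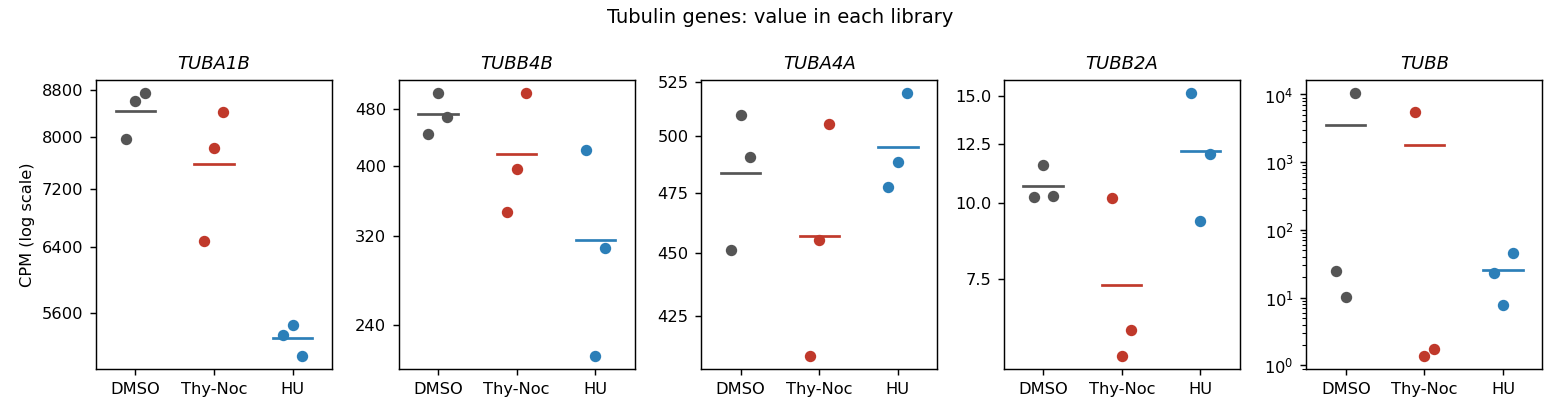
CPM on a log scale, with its own range in each panel, for 5 tubulin genes in each of the 9 libraries, with a point for each library and a line at the group mean. TUBA1B, TUBB4B and TUBA4A have Thy-Noc values that overlap DMSO, and TUBB jumps from 10.4 to 10564 CPM within DMSO alone.

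Among 30 tested genes of tubulin folding, tubulin decay and microtubule binding, edgeR, DESeq2 and limma called 0. In the list 3 had an unadjusted p under 0.05 (1 higher and 2 lower), beside 4.49% of all genes. The median of the list was −0.07. SPAST, a microtubule-severing enzyme, differed by −0.82 ± 0.29 and CCT6A, a subunit of the chaperonin that folds tubulin, by −1.33 ± 0.54, and neither passed. CCT6A stood at 94.9, 18.3 and 87.2 CPM in DMSO and 23.4, 29.1 and 27.2 CPM in Thy-Noc, so DMSO replicate 2 lay below the Thy-Noc libraries.

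SLBP was the single edgeR call among genes of S-phase entry. Of 36 tested E2F and G1/S genes, edgeR and limma each called 1, beside 0.0353% and 0.106% of all genes. DESeq2 called 1 higher and 1 lower, beside 1.58% of all genes in either direction. In the list 5 had an unadjusted p under 0.05 (2 higher and 3 lower), beside 4.49% of all genes. The lower DESeq2 call was CCND3, cyclin D3, which was unsteady in DMSO at 874, 798 and 0.407 CPM and stood at 0.301, 3.43 and 0.466 CPM in Thy-Noc. It was chosen after its values were seen. In the list the median was −0.10 with 11 positive and 25 negative. CCNE2, a cyclin E, stood at 9.91, 11 and 9.70 CPM in DMSO, 5.59, 13.6 and 15.2 CPM in Thy-Noc and 66.4, 35.1 and 101 CPM in HU. CCNE1, the other cyclin E, stood at 19.6, 28.4 and 29.7 CPM in DMSO and 20, 23.1 and 33.0 CPM in Thy-Noc. Both cyclins overlapped between DMSO and Thy-Noc.

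Genes of replication and nucleotide supply had no call with all 9 libraries. Of 52 tested genes of replication origins and forks, edgeR, DESeq2 and limma called 0, and the median was −0.01. In the list 1 gene had an unadjusted p under 0.05, beside 4.49% of all genes. That gene was TIMELESS, which protects the fork, at 146, 129 and 107 CPM in DMSO and 193, 194 and 187 CPM in Thy-Noc (0.58 ± 0.20). The groups did not overlap, and HU was lower than both at 55.3, 93.3 and 67.7 CPM. CHTF18, a clamp loader subunit, differed by −0.82 ± 0.51. Of 34 tested genes of nucleotide synthesis, edgeR, DESeq2 and limma called 0 and 0 had an unadjusted p under 0.05, with a median of −0.01 (−0.05 over the 23 that were not unsteady). CAD, which starts pyrimidine synthesis, stood at 339.8, 359 and 348 CPM in DMSO and 336, 304 and 219 CPM in Thy-Noc (−0.28 ± 0.16). RRM1, the large subunit of ribonucleotide reductase, was at 444, 471 and 523 CPM in Thy-Noc, but DMSO was unsteady, as only replicate 2 (538 CPM) exceeded 1 CPM. EdgeR called RRM1 without that library. RRM2, the small subunit, differed by −1.94 ± 0.97.

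Replication-dependent histone mRNAs, the targets of SLBP, mostly carry no poly(A) tail, and the library kit named in the labels selects mRNA, so low values are usual for them. Only 11 of 61 listed histone genes were tested, and 18 were not in the table. EdgeR, DESeq2 and limma called 0, and 0 had an unadjusted p under 0.05. The median log2 fold change was 0.42, with 10 positive and 1 negative, beside 0.01 over all genes. For the same list the median of HU minus DMSO was 1.52, and both differences share the DMSO libraries. H2AC6 stood at 1.41, 1.25 and 2.12 CPM in DMSO and 5.61, 1.82 and 3.82 CPM in Thy-Noc (1.23 ± 0.64), and H4C8 differed by 1.18 ± 0.61. The groups overlapped in both.

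DNA damage, p53 and apoptosis genes had no edgeR call either. Of 57 tested checkpoint and repair genes, edgeR called 0, and 5 had an unadjusted p under 0.05 (3 higher and 2 lower), beside 4.49% of all genes. DESeq2 called 1 higher and limma 1. Of all genes, DESeq2 called 0.899% higher and limma 0.106% in either direction. The DESeq2 call was POLK, a translesion polymerase, at 18.6, 16.6 and 21.7 CPM in DMSO and 24.5, 31.2 and 27.9 CPM in Thy-Noc (0.56 ± 0.17, DESeq2 adjusted p 0.0464), and the limma call was ETAA1. Of 28 tested p53 targets, edgeR and limma called 0. DESeq2 called 1 and 1 had an unadjusted p under 0.05, FDXR in each case, beside 1.58% and 4.49% of all genes. FDXR, an electron donor of mitochondrial steroid and iron-sulfur pathways, stood at 21.5, 28.2 and 19.9 CPM in DMSO, 135, 69.6 and 95.7 CPM in Thy-Noc and 12.4, 19.3 and 9.35 CPM in HU. It was highest in all 3 Thy-Noc libraries, with a difference of 2.11 ± 0.35 from DMSO (edgeR adjusted p 0.356, DESeq2 adjusted p 6.15e-06). It was higher in Thy-Noc than in HU (2.87 ± 0.36, edgeR adjusted p 0.0236), a call that ended in 6 of the 9 fits without 1 library, those without DMSO replicate 1 or 3, HU replicate 1 or 3 and Thy-Noc replicate 1 or 3 (adjusted p up to 0.0886).

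CDKN1A, the p21 inhibitor, stood at 6.97, 20.3 and 11.9 CPM in DMSO and 9.52, 6.66 and 8.68 CPM in Thy-Noc. MDM2, which marks p53 for destruction, stood at 242, 271 and 245 CPM in DMSO and 219, 244 and 217 CPM in Thy-Noc (−0.16 ± 0.10, 95% interval −0.40 to 0.09). Neither passed. Raji cells are known to carry mutant p53. Of 29 tested apoptosis regulators, edgeR, DESeq2 and limma called 0 and 1 had an unadjusted p under 0.05, beside 4.49% of all genes. It was APAF1, the apoptosome scaffold, at 8.22, 17.6 and 11.4 CPM in DMSO and 20.3, 57.1 and 26.0 CPM in Thy-Noc (1.48 ± 0.44). BCL2L2, a survival protein, differed by 1.14 ± 0.49, and MCL1, which is degraded in long mitotic arrest as a protein, stood at 12.5, 29.3 and 27.9 CPM in DMSO and 12.6, 18.4 and 27.7 CPM in Thy-Noc.

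Lists of innate and signalling genes had positive medians against DMSO without a call. Of 39 tested NF-kB subunits and targets, edgeR, DESeq2 and limma called 0, and 3 had an unadjusted p under 0.05, all higher, beside 2.45% of all genes. Thy-Noc lay wholly above DMSO in 7 and wholly below in 0, beside 5.18% and 4.79% of all genes. The median was 0.43, and 31 were positive and 8 negative. The median of HU minus DMSO for the same list was 1.63, and both differences share the DMSO libraries. EBI3, a cytokine subunit, stood at 35.4, 21.4 and 38.7 CPM in DMSO, 41.8, 59.4 and 49.8 CPM in Thy-Noc and 147, 137 and 127 CPM in HU. The 3 groups did not overlap (Thy-Noc minus DMSO 0.66 ± 0.24, edgeR adjusted p 0.9998). CCR7, a receptor that guides lymphocytes to lymph nodes and was chosen after its values were seen, stood at 38.6, 22.1 and 44.8 CPM in DMSO, 67.3, 57.1 and 53.8 CPM in Thy-Noc and 296, 165 and 246 CPM in HU (Thy-Noc minus DMSO 0.76 ± 0.31). TNFAIP3, an NF-kB inhibitor, was under 2 CPM in all 6 libraries (2.80 ± 1.05).

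Of 24 tested immediate early genes, edgeR, DESeq2 and limma called 0 against DMSO and 0 had an unadjusted p under 0.05, with a median of 0.12 (HU minus DMSO 1.30). JUNB, an AP-1 subunit with 1 annotated transcript, stood at 39.9, 40.3 and 43.1 CPM in DMSO, 42.5, 47.5 and 44.4 CPM in Thy-Noc and 100.2, 116 and 111 CPM in HU. Thy-Noc and DMSO overlapped (0.12 ± 0.10, 95% interval −0.11 to 0.36). DUSP5 and DUSP10, phosphatases of MAP kinases, differed by 0.82 ± 0.44 and 0.45 ± 0.25. Of 35 tested interferon-stimulated genes, edgeR, DESeq2 and limma called 0, with a median of 0.11 (HU minus DMSO 2.16). In the list 1 gene had an unadjusted p under 0.05, beside 4.49% of all genes. That gene was EPSTI1, at 12.5, 8.87 and 10.6 CPM in DMSO, 14.4, 15 and 15.6 CPM in Thy-Noc and 49.9, 39.1 and 59.5 CPM in HU (Thy-Noc minus DMSO 0.49 ± 0.20). IFITM1, which blocks viral entry, differed by 3.81 ± 2.07.

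The direct test against HU called members of these lists lower in Thy-Noc, 6 of 24 immediate early genes, 4 of 39 NF-kB genes and 2 of 35 interferon-stimulated genes, and 0 higher, beside 0.696% of all genes lower. The log2 difference from HU was −1.28 ± 0.10 for JUNB (edgeR adjusted p 0.0119), −1.72 ± 0.20 for EPSTI1 (0.0186) and −1.45 ± 0.24 for EBI3 (0.0392). PPP1R15A, which restores translation after stress and was chosen after its values were seen, stood at 6.15, 6.76 and 6.47 CPM in DMSO, 10.3, 7.64 and 5.45 CPM in Thy-Noc and 71.4, 60.9 and 43.4 CPM in HU (Thy-Noc minus HU −2.91 ± 0.29, edgeR adjusted p 0.0131). JUNB lost its call without Thy-Noc replicate 3 (adjusted p 0.0533), and PPP1R15A without HU replicate 1 or Thy-Noc replicate 2 or 3 (up to 0.0533). EPSTI1 lost it without HU replicate 1 or 3 or any of the Thy-Noc replicates (up to 0.0869), and EBI3 without any 1 library other than DMSO replicate 2 (up to 0.132).

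**Figure D5:**
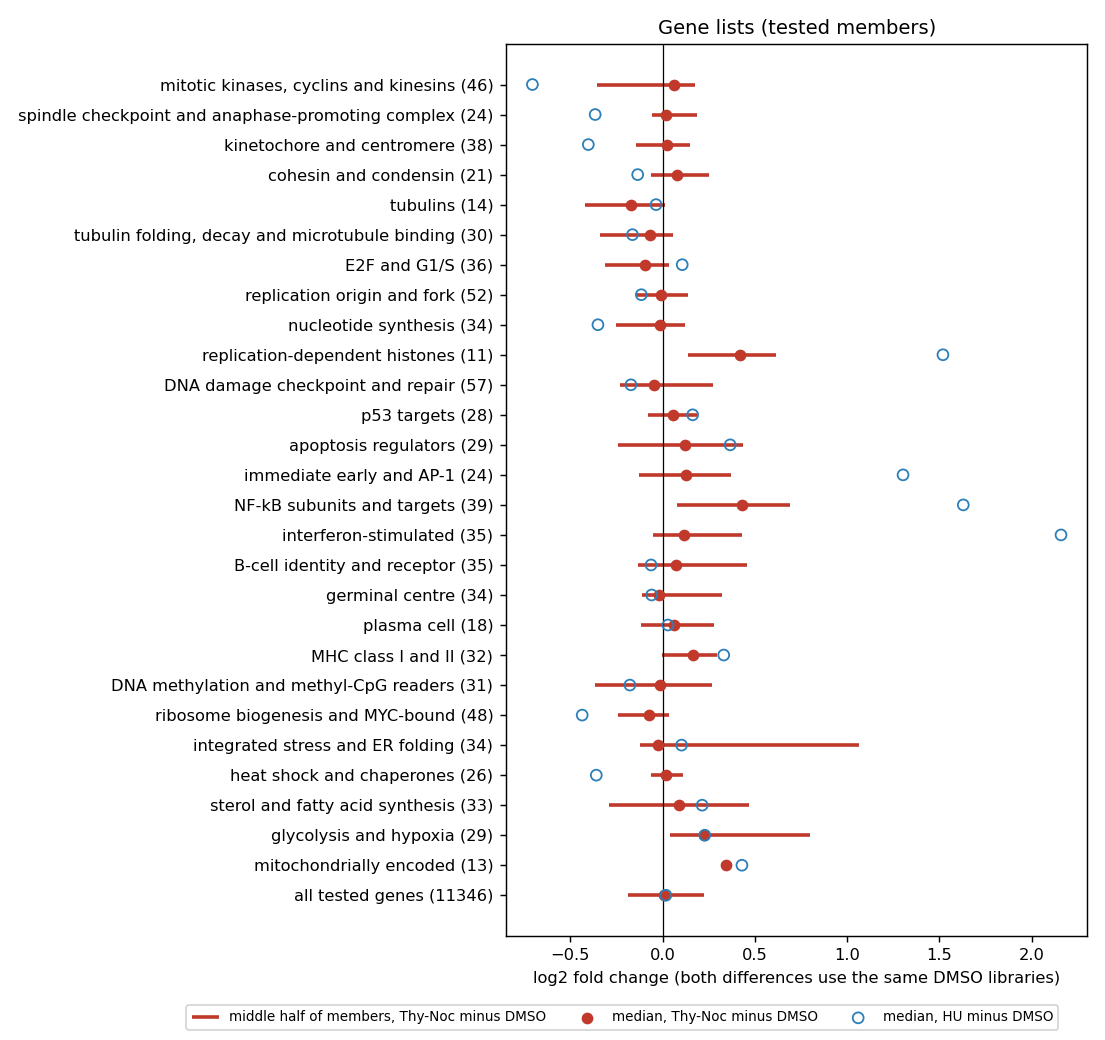
Log2 fold changes of 27 gene lists and of all tested genes, with the number of tested members in parentheses. Red points are the median of Thy-Noc minus DMSO and red bars the middle 50% of members. Open blue circles are the median of HU minus DMSO, which uses the same DMSO libraries. Red medians lie between −0.17 and 0.43, blue ones between −0.70 and 2.16.

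FCRL3 was the single call among genes of B-cell identity. In the list of B-cell identity and receptor genes, with 35 tested, edgeR called 0 higher and 1 lower, beside 0.0264% and 0.00881% of all genes. The median was 0.07. DESeq2 called 1 higher and 1 lower, beside 0.899% and 0.679% of all genes. The higher DESeq2 call was CD37, a B-cell tetraspanin chosen after its values were seen, at 7.38, 9.28 and 24.5 CPM in DMSO and 74.4, 72.7 and 33.0 CPM in Thy-Noc. Of 34 tested germinal centre genes, edgeR, DESeq2 and limma called 0 against DMSO, with a median of −0.02. In the list 2 had an unadjusted p under 0.05 (1 higher and 1 lower), beside 4.49% of all genes. SERPINA9, a germinal centre protease inhibitor, differed by 1.07 ± 0.41, and SPIB, a B-cell transcription factor, by 0.36 ± 0.17. BCL6, the master regulator of the germinal centre, stood at 30.9, 39.7 and 18.5 CPM in DMSO and 3.62, 29.3 and 26.5 CPM in Thy-Noc. Of 18 tested plasma cell genes, edgeR, DESeq2 and limma called 0 and 0 had an unadjusted p under 0.05 (median 0.06, and 0.0072 over the 17 that were not unsteady). MZB1, a chaperone of antibody assembly, stood at 297, 229.9 and 229.6 CPM in DMSO and 294, 289 and 338 CPM in Thy-Noc (0.28 ± 0.14), and PIM2, a survival kinase, differed by 0.27 ± 0.14.

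Antigen presentation genes had no edgeR call either. Of 32 tested MHC class I and II genes, edgeR and limma called 0 and DESeq2 called 1, beside 1.58% of all genes. In the list 3 had an unadjusted p under 0.05 (2 higher and 1 lower), beside 4.49% of all genes. The median was 0.17, with 24 positive and 8 negative, and Thy-Noc lay wholly above DMSO in 7 and wholly below in 2, beside 5.18% and 4.79% of all genes. PSMB10, a subunit of the immunoproteasome, stood at 51.5, 51.9 and 54.4 CPM in DMSO and 61.5, 68.2 and 69.3 CPM in Thy-Noc (0.33 ± 0.11). HLA-DRB1, a class II chain, stood at 101, 90.4 and 109 CPM in DMSO and 122, 116 and 124 CPM in Thy-Noc (0.28 ± 0.09, DESeq2 adjusted p 0.0352), and was the DESeq2 call. HLA genes are polymorphic and alike, so their values are uncertain.

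MBD1, a repressor that binds methylated CpG and is in the title of the series, stood at 51.0, 44.1 and 64.1 CPM in DMSO, 104, 94.0 and 166 CPM in Thy-Noc and 174, 163 and 160.1 CPM in HU. Every Thy-Noc library lay above every DMSO library. The difference was 2.29-fold (log2 fold change 1.19 ± 0.24, 95% interval 0.63 to 1.75) and did not pass in edgeR (adjusted p 0.693), while DESeq2 called it (DESeq2 adjusted p 0.00140). The difference of Thy-Noc from HU was −0.45 ± 0.24, with an edgeR adjusted p of 0.363. MBD1 lies on the minus strand at chr18:50266882-50281774 with 27 annotated transcripts, so its values may be for part of the gene. In the list for DNA methylation and its readers, with 31 tested, edgeR and limma called 0, DESeq2 called 2 higher (0.899% of all genes), and 3 had an unadjusted p under 0.05 (2 higher and 1 lower, beside 4.49% of all genes), with a median of −0.01. The other DESeq2 call was DNMT3B, a de novo methyltransferase, at 1.74, 2.07 and 2.53 CPM in DMSO and 43.1, 4.36 and 21.1 CPM in Thy-Noc (3.43 ± 1.09).

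Growth genes had no edgeR call. Of 48 tested genes of ribosome biogenesis and MYC-bound genes, edgeR and limma called 0, with a median of −0.07 and 16 positive and 32 negative. DESeq2 called 1 lower and 1 gene had an unadjusted p under 0.05, beside 0.679% and 4.49% of all genes. FBL, the methyltransferase of small nucleolar particles, was that gene, at 1408, 1396 and 1632 CPM in DMSO and 797, 979.8 and 1031 CPM in Thy-Noc. Thy-Noc lay wholly below DMSO (−0.66 ± 0.16, edgeR adjusted p 0.9998, DESeq2 adjusted p 0.0180). NOP58, its partner in those particles, differed by 0.62 ± 0.27. MYC, translocated in Burkitt lymphoma, stood at 44.3, 429 and 257 CPM in DMSO and 277, 95.9 and 259 CPM in Thy-Noc, and the groups overlapped.

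Stress and chaperone genes had no call. Of 34 tested integrated stress and ER folding genes, edgeR, DESeq2 and limma called 0 (median −0.03). In the list 1 gene had an unadjusted p under 0.05, beside 4.49% of all genes. It was SLC3A2, the heavy chain of amino acid transporters, at 19.9, 37.4 and 33.5 CPM in DMSO and 72.7, 34.9 and 188 CPM in Thy-Noc (1.70 ± 0.58). Of 26 tested heat shock and chaperone genes, the same tools called 0 and 0 had an unadjusted p under 0.05 (median 0.02), and DNAJA2, a co-chaperone, stood at 151, 157 and 154 CPM in DMSO and 177, 143 and 172 CPM in Thy-Noc.

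Metabolic lists had no edgeR call. Of 33 tested sterol and fatty acid genes, edgeR and limma called 0 and DESeq2 called 1 lower, beside 0.679% of all genes. In the list 3 had an unadjusted p under 0.05 (1 higher and 2 lower), beside 4.49% of all genes. The median of the list was 0.09 (0.05 over the 25 members that were not unsteady). FASN, fatty acid synthase, stood at 1794, 1719 and 1701 CPM in DMSO and 1378, 1525 and 1563 CPM in Thy-Noc (−0.22 ± 0.10), and the groups did not overlap. FADS2, a fatty acid desaturase and the DESeq2 call, stood at 1.20, 10.2 and 16.3 CPM in DMSO and 0.669, 1.57 and 1.08 CPM in Thy-Noc (−3.06 ± 0.86, DESeq2 adjusted p 0.0156). Of 29 tested glycolysis and hypoxia genes, edgeR called 0, DESeq2 and limma 1 and 1 had an unadjusted p under 0.05, all of them VEGFA. Over all genes those shares were 1.58% for DESeq2, 0.106% for limma and 4.49% for the unadjusted p. The list's median was 0.23 with 22 positive and 7 negative, and 0.09 over the 23 members that were not unsteady. ALDOC, an aldolase, differed by 1.08 ± 0.53.

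The 13 mitochondrially encoded genes were all positive, with a median of 0.34, and edgeR, DESeq2 and limma called 0 of them and 0 had an unadjusted p under 0.05. MT-ND5, a subunit of complex I, stood at 505, 588 and 551 CPM in DMSO and 885, 569 and 726 CPM in Thy-Noc (0.41 ± 0.19), and MT-CO2, of complex IV, differed by 0.38 ± 0.18. The median of HU minus DMSO for the 13 was 0.43, from the same DMSO libraries. These genes took 1.0%, 1.08% and 1.02% of the counts in DMSO, 1.54%, 1.03% and 1.28% in Thy-Noc and 1.82%, 1.54% and 1.45% in HU. The share in Thy-Noc replicate 2 lay within the DMSO range.

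The libraries carried B-cell markers and little of other cell types. All 8 B-cell markers were tested, and their summed level was 1865 to 2316 CPM in DMSO and 1642 to 2600 CPM in Thy-Noc. Of 6 germinal centre markers 5 were tested, at 293 to 307 CPM in DMSO and 266 to 305 CPM in Thy-Noc. Summed levels of T and NK cell markers stayed under 1 CPM (1 of 9 listed), as did those of myeloid markers (2 of 7 listed), and none of 5 erythroid markers was listed. Epithelial and stromal markers, 2 of 8 listed (COL1A1 and PECAM1), summed to 3.48 to 5.34 CPM in DMSO and 3.42 to 7.37 CPM in Thy-Noc.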

How the data were processed

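RNA from Raji cells was sequenced in 9 libraries, 3 per group. The labels' protocols name a stranded mRNA library kit. FastQC, Trim Galore, STAR and DESeq2 and the build GRCh38 stand in the submitters' processing notes without roles or versions. The sources used here do not give the counting tool or how strand was counted, so overlapping and antisense genes and near-identical family members are uncertain.

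The authors deposited 1 table whose name calls its values CPM. Because the deposited values are whole numbers with a minimum of 1 and totals from 74940755 to 110485145, they were treated like estimated or expected counts that had been rounded, although 274 genes stand at 1 in every library. A value may hold only part of a gene's reads. Symbols were found for 15393 of 15436 identifiers and GENCODE 29 positions for 15272.

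Genes that reached 1 CPM in 3 or more libraries were tested in R 4.3.3 with edgeR 4.0.16: TMM scaling and a quasi-likelihood model of the 3 groups on all 9 libraries, with 6 residual degrees of freedom (prior degrees of freedom 1.25). Tests were two-sided with Benjamini-Hochberg adjustment over 11346 genes and a threshold of 0.05. Had the values been CPM, limma would have been the main test; it is an alternative here. Standard errors and 95% intervals follow from each log2 fold change and its F. CPM values use TMM-scaled library sizes. The alternatives tried were the unfiltered table, a 5 CPM filter, scaling by median of ratios or by total counts, robust dispersions, only the 6 libraries compared, the replicate number as a block, DESeq2 1.42.0, limma 3.58.1 with 0.5 or 0.1 CPM added, dropping unsteady genes, and leaving out each library in turn. A fit restricted to genes of 3 or fewer annotated transcripts was added after the data were seen. The test steps were checked on simulated data in which the spread between replicates was capped at a low level. That check cannot show how the tests perform at the spread of these libraries.

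The comparison, its 31 gene lists and the naming rule were chosen with earlier results of these data known. The rule names the 12 highest and 12 lowest called genes that were not unsteady, with a mean of at least 5 CPM and no overlap, for each list at most 5 called members a direction (or the 2 steady members with the lowest p), the tubulins and a fixed set of cell cycle and control genes. The text leaves out some of these, and 1 further list is not reported here. Genes called by limma or DESeq2 alone, and BUB1, CKS2, CENPF, TOP2A, CCNA2, CCND3, CCR7, CD37 and PPP1R15A, were chosen after their values were seen.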

Additional observations from a re-analysis of the deposited data

How the results depend on the processing

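Against DMSO, the 3 higher and 1 lower calls stood at 3 and 1 without a filter, with a CPM minimum of 5, with median-of-ratios scaling, total-count scaling and robust dispersions. With only the 6 libraries compared they were 4 and 2, DESeq2 gave 102 and 77, limma 7 and 5 at a pseudocount of 0.5 CPM and 5 and 2 at 0.1 CPM, and the fit without unsteady genes 4 and 1. Genes with at most 3 annotated transcripts gave 0 and 0 of 2454 tested, since none of the 4 is among them, with 96 at an unadjusted p under 0.05. Leaving out 1 library gave 3 to 8 higher and 1 to 6 lower. With only 6 libraries CRIP3 and SETD2 missed the threshold (edgeR adjusted p 0.0674 and 0.0882), and the cause was not tested.

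Against HU, the 120 higher and 79 lower calls became 34 and 30 without a filter, 176 and 137 with a CPM minimum of 5, 46 and 111 with total-count scaling, 12 and 6 with only the 6 libraries compared, 926 and 900 with DESeq2, 178 and 148 or 173 and 138 with limma (0.5 or 0.1 CPM), 233 and 239 without unsteady genes and 176 and 172 with at most 3 transcripts. Leaving out 1 library gave 1 to 56 higher and 0 to 54 lower. The cause was not tested.

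The replicate number as a block gave 0 and 0 calls in both comparisons, against DMSO with 430 genes at an unadjusted p under 0.05 and an edgeR adjusted p of 0.0855 for SLBP, CRIP3 and FCRL3 and 0.115 for SETD2. The labels do not say what a shared number means. Deviations of same-numbered libraries from their group means had r from −0.035 to 0.04 across tested genes. Without unsteady genes r ran from −0.039 to 0.096. With either set of genes, 1 of 9 libraries was closest to its own number in both other groups. Whether same-numbered libraries were paired is not known.

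TOP2A against DMSO turned to 0.021 without Thy-Noc replicate 1, in a range of −0.14 to 0.021 over the fits without 1 library. SLBP against HU turned to −0.13 with total-count scaling, −0.056 without HU replicate 2 and −0.062 without Thy-Noc replicate 2, and ran from −0.062 to 0.11 over the fits without 1 library. None of these values passed, and the cause was not tested. Of 1360 values of 68 genes against DMSO, 1323 kept direction and side of the threshold, 29 newly passed and 7 no longer passed; against HU 239 of 324 values of 16 genes did, 1 newly passed and 81 no longer passed.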
